A study of Mus musculus with 4 samples.

Results

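Iron storage and transport genes were followed in microglia of mice on a diet with cuprizone (CPZ), which binds copper and strips axons of myelin. The group holds 8 of the 32285 annotated genes, taken by symbol. Fth1 and Ftl1 encode the heavy and light chains of ferritin, the iron store of the cytosol. Tfrc, Slc11a2 and Slc11a1 bring iron into the cell or out of its vesicles, Slc40a1 exports it, Ncoa4 delivers ferritin for breakdown and Ireb2 encodes a sensor of iron. Single brain cells sorted for CD45 and CD11b were compared between 2 PRMT1FL mice, with floxed alleles of Prmt1 (written as wild type in the sample labels), and 2 PRMT1Cx3cr1-KO mice. In the latter, CreERT, a recombinase that tamoxifen switches on, is driven by Cx3cr1 and deletes those alleles. Prmt1 encodes an arginine methyltransferase. The Cx3cr1 driver is also active in other macrophages of the brain, and the sources used here do not say whether PRMT1FL mice carried it. The study's methods place tamoxifen at 5 to 6 wk of age in both genotypes and the diet with 0.2% CPZ after it, for 5 wk, while the labels give that age for the diet. All 4 mice received CPZ, so no comparison with a normal diet is possible, and each mouse gave 1 library.

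The libraries held 76943248 to 99559644 unique molecular identifiers (UMIs, which count an RNA molecule a single time however often it was read), and the filters on genes and mitochondrial UMIs left 8170 to 11427 cells per mouse. Prmt1, the targeted gene, stood at 93.3 and 86.2 CPM (UMIs of a gene per 1000000 UMIs, scaled between libraries) in PRMT1FL microglia and at 69.7 and 67.6 in PRMT1Cx3cr1-KO microglia, a log2 fold change of -0.39 (SE 0.07, edgeR adjusted p = 0.0779). Both knockout libraries lay below both controls, in the direction of their labels, and how far the UMIs, read from 3′ ends, cover the deleted part was not tested. Pairs of libraries shared 31 to 46 cell barcodes. Haemoglobin and other erythroid genes summed to 242 and 94.3 raw CPM (the same rate without scaling between libraries) in the microglial clusters of the PRMT1FL libraries and to 0.0612 and 0.0213 in those of the knockouts. Leaving out cells with over 1% haemoglobin UMIs took PRMT1FL microglia from 10982 and 7815 to 10972 and 7814 cells. The knockouts stayed at 10190 and 10677. No iron gene was called over all microglia then either, but with so few cells removed this cannot show the part of erythroid RNA. Expression was summed per mouse, since mice and not cells are replicates here.

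Cells hold their usable iron in balance by matching uptake, storage and export. Iron regulatory proteins, of which the product of Ireb2 is one, bind a short hairpin called the iron-responsive element when iron is scarce. A hairpin in the 5′ untranslated region (UTR) then blocks translation, as in ferritin mRNA, while hairpins in the 3′ UTR protect the mRNA from decay, as in Tfrc mRNA. Macrophages of the brain take up iron from dying cells and myelin debris, store it in ferritin and return it through ferroportin, the product of Slc40a1. Ferritin mRNA is also raised by stress pathways that do not use the hairpin, so a level of mRNA is not a level of iron or of protein.

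The hairpin letters are printed here to show in which members 1 strict form of the hairpin was found, and on which side of the coding sequence. Transcripts of the GENCODE annotation (release for GRCm38, which is mm10) were searched on the transcript strand for a C, then 5 bases, then CAGTGN, where the 5 bases before CAGTGN pair with the 5 bases after it. The loop CAGTGN is in capitals. The search found 1 hairpin in the 5′ UTR of each of Fth1, Ftl1 and Slc40a1 and 4 in the 3′ UTR of Tfrc. No match was found in the UTRs of Slc11a2, Slc11a1, Ncoa4 or Ireb2, which says only that these letters are not there. All 5 bases had to pair with no extra base between them, so a hairpin of another shape would be missed. Of the 20890 genes with an annotated 5′ UTR 0.134% held a match there, and of the 20998 with a 3′ UTR 0.605%.
Fth1 5′ UTR: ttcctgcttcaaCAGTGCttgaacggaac
Ftl1 5′ UTR: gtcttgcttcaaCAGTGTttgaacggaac
Slc40a1 5′ UTR: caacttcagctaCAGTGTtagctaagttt
Tfrc 3′ UTR, a: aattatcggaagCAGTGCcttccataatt
Tfrc 3′ UTR, b: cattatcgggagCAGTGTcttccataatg
Tfrc 3′ UTR, c: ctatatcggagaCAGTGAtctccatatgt
Tfrc 3′ UTR, d: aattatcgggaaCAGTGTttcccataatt
In GRCm38 the Fth1 hairpin lies on the plus strand at chr19:9982732-9982760, that of Ftl1 on the minus strand at chr7:45459779-45459807 and that of Slc40a1 on the minus strand at chr1:45925465-45925493. Those of Tfrc lie on the plus strand of chromosome 16 and start at 32631219, 32631598, 32631663 and 32631710. Among the genes with no match, Slc11a2 lies at chr15:100387898-100425072, Slc11a1 at chr1:74375195-74386062, Ncoa4 at chr14:32159865-32179855 and Ireb2 at chr9:54863789-54912530.

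Over all microglia, the iron genes differed little between genotypes. No member of the 8 was called at an adjusted p of 0.05 by edgeR's quasi-likelihood test, where 0.448% of the 13852 genes tested were called. Of the members 1, Slc40a1, had an unadjusted p under 0.05, as had 2726 of all genes tested. DESeq2 also called no member. The median log2 fold change of the members was 0.01, against -0.004 over all genes tested. In the storage genes, Fth1 stood at 7871 and 8344 CPM in PRMT1FL mice and at 8854 and 9301 in PRMT1Cx3cr1-KO mice. The log2 fold change was 0.16 (SE 0.10, adjusted p = 0.423). Both knockouts were above both controls. Ftl1 stood at 5161 and 5406 CPM in PRMT1FL mice and at 5406 and 6236 in knockouts (log2 fold change 0.14, SE 0.11, adjusted p = 0.522), so the genotypes met at their border. Ftl1 shares sequence with the pseudogene Ftl1-ps1, counted at 25.7 to 29.5 CPM, and Fth1 has processed copies too. How the authors' counting treated ferritin reads that match more than 1 copy was not tested.

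The ferritin genes took 1.27% and 1.34% of all UMIs in PRMT1FL microglia and 1.44% and 1.62% in PRMT1Cx3cr1-KO microglia, without overlap. An exact permutation test over mice gave p = 0.333, the smallest two-sided value that 2 mice against 2 allow. The heavy chain gene Fth1 made up 60.4% and 60.7% of ferritin UMIs in PRMT1FL mice and 62.1% and 59.9% in knockouts (difference 0.437 percentage points, exact permutation p = 1). The knockouts lay on either side of the controls.

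Slc40a1 encodes ferroportin, the known iron exporter of animal cells. It stood at 19.4 and 20.8 CPM in PRMT1FL mice and at 23.6 and 28.3 in PRMT1Cx3cr1-KO mice, with both knockouts above both controls. The log2 fold change was 0.37 (SE 0.10, 95% interval 0.12 to 0.62), and the adjusted p was 0.138. Without PRMT1Cx3cr1-KO mouse 1, which left 1 knockout, the log2 fold change was 0.50. The homeostatic-like cluster described below, the highest microglial cluster for Slc40a1, held 12.7% and 14.4% of PRMT1FL cells and 16.4% and 16.3% of knockout cells. Markers of border-associated macrophages summed to 19.6 and 19.9 raw CPM in the microglial clusters of PRMT1FL mice, against 36.6 and 99.9 in knockouts. The part of either in the Slc40a1 level was not tested. Over all genes, both knockouts lay above both controls in 26.1% and below in 27.6%. Fth1, Slc40a1 and Ireb2 were of the first kind and Slc11a2, Slc11a1 and Ncoa4 of the second, shares near those of all genes in view of 8 members.

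Among the genes of iron entry, Tfrc encodes the receptor that takes up iron bound to transferrin. It stood at 16.2 and 13.6 CPM in PRMT1FL mice and at 14.9 and 14.4 in knockouts (log2 fold change -0.02, 95% interval -0.26 to 0.21). The knockout values lay between those of the controls. Slc11a2 encodes DMT1, which moves iron out of endosomes, and stood at 20.5 and 21.4 CPM against 19.8 and 18.8 in knockouts (log2 fold change -0.12, SE 0.07, adjusted p = 0.390). Slc11a1 encodes NRAMP1, a metal transporter of phagosomes in macrophages. It stood at 206 and 205 CPM in PRMT1FL mice and at 199 and 185 in knockouts (log2 fold change -0.10, SE 0.06, adjusted p = 0.451). Ncoa4 encodes the receptor that carries ferritin to the lysosome, and it stood at 30.7 and 31.3 CPM against 28.0 and 30.2 (log2 fold change -0.09, SE 0.07, adjusted p = 0.510). Ireb2 stood at 21.9 and 20.8 CPM against 22.0 and 21.9, a log2 fold change of 0.04 (SE 0.07, adjusted p = 0.776).

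Inside 1 cluster the picture was different. Cells of the 4 mice were clustered together without the iron genes. Genes called between genotypes, or with an absolute log2 fold change above 1, were left out too. The cluster led by Il7r, Crybb1, Adgrg1, Txnip and P2ry12, of which P2ry12 marks microglia at rest, is called homeostatic-like. Slc40a1, though left out of the clustering, was also among its 10 leading genes. So was Pdlim4, which with Il7r belongs to a list of 6 genes of a stress state with Gdf15. A sum of 8 genes that respond to tissue dissociation was higher in this cluster than in any other. It was 16615 and 13352 raw CPM in PRMT1FL mice and 17822 and 12638 in knockouts, and its part was not tested. The cluster held 1456 and 1180 PRMT1FL cells and 1697 and 1778 knockout cells, at a median of 2860 to 3342 UMIs per cell. In this cluster 5 members rose in PRMT1Cx3cr1-KO mice and 1 fell. Of the 10883 genes tested there, 21.1% were called, 11.1% upward and 10% downward, so many other genes differed as well. The median log2 fold change was 0.73 over the 8 members and -0.0002 over all genes tested.

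Both chains of ferritin rose. Fth1 stood at 4225 and 4444 CPM in PRMT1FL mice and at 7985 and 8541 in PRMT1Cx3cr1-KO mice (log2 fold change 0.93, SE 0.10, edgeR adjusted p = 2.94e-05). Ftl1 stood at 4005 and 4058 CPM against 7355 and 7237 (log2 fold change 0.86, SE 0.09, adjusted p = 4.4e-05). The controls were far apart from the knockouts in both genes, and the ferritin share of all UMIs in the cluster went from 0.835% and 0.851% to 1.499% and 1.58%. Fth1 kept 51.3% to 54.1% of the ferritin UMIs in the 4 mice. Ncoa4, the ferritin receptor for breakdown, fell. It stood at 57.3 and 58.8 CPM in PRMT1FL mice and at 42.6 and 45.5 in knockouts (log2 fold change -0.40, SE 0.11, adjusted p = 0.0190), a call that DESeq2 did not make (adjusted p = 0.195) and that was lost without PRMT1FL mouse 1, without PRMT1FL mouse 2 or without knockout mouse 1 (edgeR adjusted p = 0.0757, 0.0941 and 0.0531). With another clustering seed it was lost too (log2 fold change -0.26, adjusted p = 0.0687), and there 6 members rose and 0 fell. Of all genes 22.6% were called with that seed.

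The divalent metal transporters rose with ferritin. Slc11a1 stood at 193 and 198 CPM in PRMT1FL mice and at 456 and 516 in knockouts, a log2 fold change of 1.31 (SE 0.10, edgeR adjusted p = 1.92e-06). The knockout values exceeded the 199 and 185 CPM of the same mice over all microglia. Cells under 2000 UMIs were then left out and the others thinned to 2000. Of those left in the cluster, 29.7% and 31.6% of PRMT1FL cells held a UMI of Slc11a1, against 55.7% and 62.3% of knockout cells. These shares rest on 1175 of 1456 and 959 of 1180 PRMT1FL cells, and on 1178 of 1697 and 1232 of 1778 knockout cells. In the astrocyte-like cluster, a cell type that should lack this gene, the thinned share reached 2.83% and 4.88% in controls, against 8.33% and 20% in knockouts. These shares rest on 106, 82, 12 and 10 cells. All cells of that cluster, before any were left out, had medians of 1545.5 to 2757 UMIs. Slc11a2 stood at 15.4 and 17.6 CPM in controls and at 28.7 and 30.6 in knockouts (log2 fold change 0.85, SE 0.15, adjusted p = 0.00198). Tfrc, the other gene of uptake, stood at 8.04 and 6.505 CPM against 8.80 and 13.4. Its log2 fold change of 0.62 (SE 0.26, adjusted p = 0.116) did not pass. It did pass without knockout mouse 1 (log2 fold change 0.87, adjusted p = 0.0132), at a raised clustering resolution (0.81, adjusted p = 0.0092) and with another clustering seed (0.72, adjusted p = 0.0140).

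The exporter rose from a level that was already high. Slc40a1 stood at 89.3 and 94.2 CPM in PRMT1FL mice and at 113 and 142 in knockouts (log2 fold change 0.47, SE 0.12, edgeR adjusted p = 0.0115). It no longer passed without PRMT1FL mouse 1 (adjusted p = 0.0791) or without knockout mouse 2 (adjusted p = 0.0655). Ireb2, the regulator, stood at 41.3 and 39.8 CPM in controls and at 34.0 and 39.1 in knockouts (log2 fold change -0.15, SE 0.12, adjusted p = 0.452). The 3 members with a match in the 5′ UTR were thus among the 5 that rose. The others that rose were Slc11a1 and Slc11a2, in which the search, limited to 1 strict form of the hairpin, found none.

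**Figure D1:**
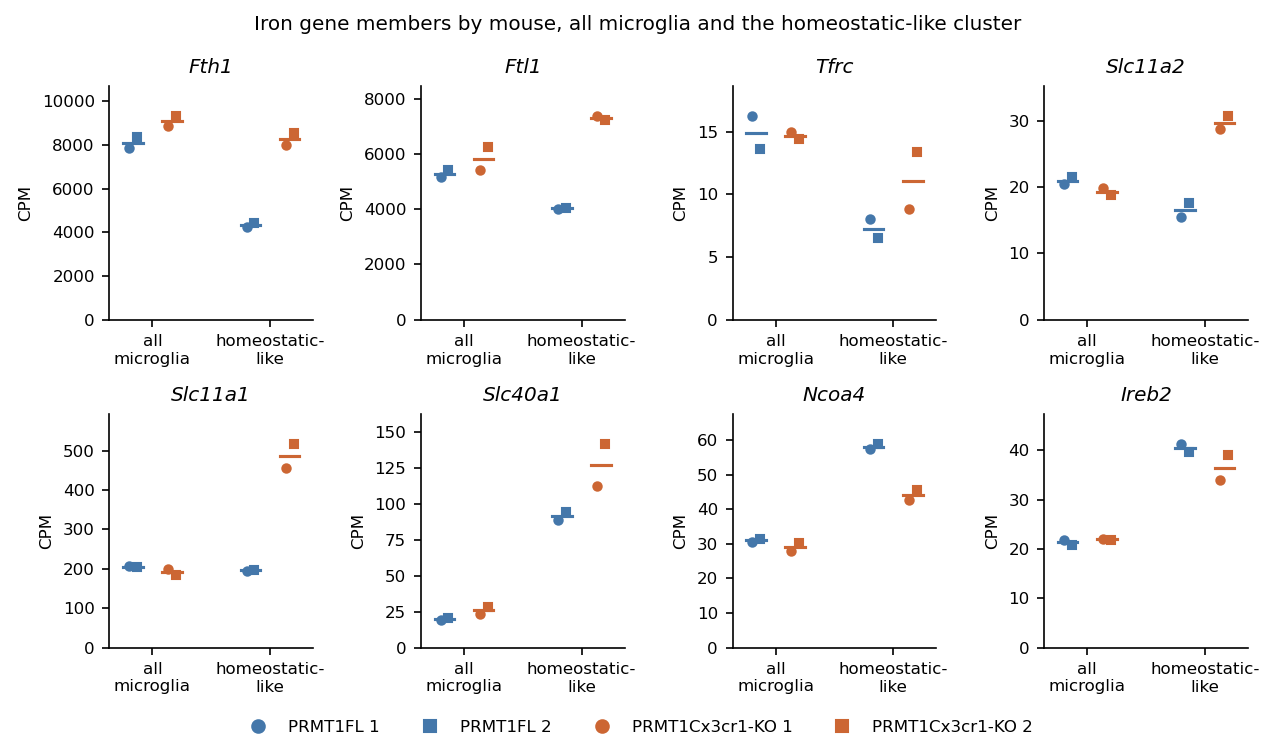
Level of each iron gene in CPM (y axis, from 0) in the 2 PRMT1FL mice (blue) and the 2 PRMT1Cx3cr1-KO mice (orange), over all microglia (left pair of groups) and in the homeostatic-like cluster (right pair). Points are mice and short lines are means. Slc11a1 was 199 and 185 CPM in knockouts over all microglia and 456 and 516 in the cluster.

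Whether this genotype effect differed from that in the other microglia was tested directly, with limma on each mouse's log2 difference between the cluster and all other microglial clusters. Of the 10880 genes tested, 8.74% differed, and among the members 4 did. For Slc11a1 the level in the cluster relative to the rest was -0.03 and -0.01 (log2) in controls, against 1.30 and 1.61 in knockouts, a difference of 1.47 (SE 0.14, adjusted p = 0.0161). For Slc11a2 it was -0.34 and -0.23 against 0.56 and 0.71 (difference 0.92, SE 0.11, adjusted p = 0.0208). Fth1 was below the rest in every mouse, by less in knockouts, at -0.87 and -0.91 against -0.21 and -0.20 (difference 0.69, SE 0.09, adjusted p = 0.0259). Ftl1 turned from below to above the rest, from -0.32 and -0.40 to 0.44 and 0.16 (difference 0.66, SE 0.13, adjusted p = 0.0477). For Slc40a1 the difference was 0.13 (SE 0.20, adjusted p = 0.699), as the gene was 2.58 to 2.76 above the rest in all 4 mice. Ncoa4 at -0.43 (SE 0.10, adjusted p = 0.0704), Ireb2 at -0.31 (adjusted p = 0.183) and Tfrc at 0.49 (adjusted p = 0.228) did not pass. At a raised clustering resolution limma called 6 members, with Ncoa4 (-0.49, adjusted p = 0.0440) and Tfrc (0.67, adjusted p = 0.0438) among them. There 12.9% of all genes were called. Without any 1 of the mice, no gene at all passed this test.

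**Figure D2:**
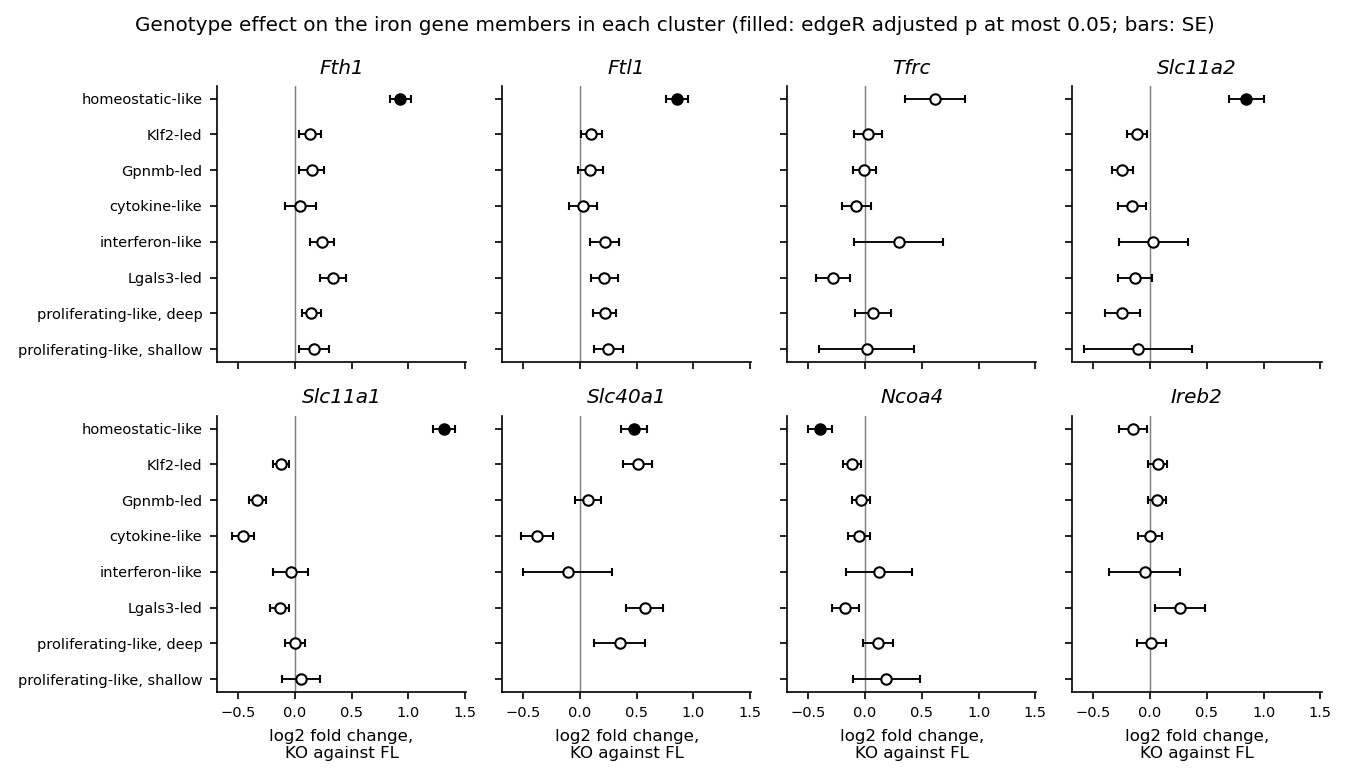
Genotype effect on each iron gene (x axis, log2 fold change of PRMT1Cx3cr1-KO against PRMT1FL mice, with SE as bars) in each of the 8 microglial clusters with at least 30 cells per mouse. Filled points passed edgeR's adjusted p of 0.05: all 6 lie in the homeostatic-like cluster, from -0.40 for Ncoa4 to 1.31 for Slc11a1.

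The make-up of the cluster also differed between genotypes. Summed over 7 genes of the homeostatic state, its cells held 7691 and 8094 raw CPM in PRMT1FL mice and 5720 and 5221 in knockouts. The 8 core genes of microglia went from 20807 and 21591 to 15250 and 14618. The 7 genes of the B1 state went from 7154 and 5102 to 17274 and 19631, and 7 cytokine and chemokine genes from 4465 and 3881 to 10124 and 6930. The 7 genes of a phagocytic state went from 12621 and 12279 to 18784 and 21961, and 6 genes of a stress state with Gdf15 from 243 and 242 to 743 and 786. More cells of another kind within the cluster and more iron gene RNA per cell cannot be told apart. Without cells that held a UMI of Gdf15, the log2 fold change was 0.77 for Fth1, 0.73 for Ftl1, 1.27 for Slc11a1 and 0.76 for Slc11a2, each still called. The difference from other microglia was then 0.57 for Ftl1 and no longer passed (limma adjusted p = 0.0738). This left 3 members, where 5.78% of all genes were called. A split of thinned microglia by a UMI of P2ry12 gave smaller values, but it marked a far wider set of cells than the cluster. Per mouse, 3566 to 5374 cells held such a UMI and 3664 to 5332 held none, against 1180 to 1778 in the cluster. The sizes of effect are therefore not comparable. With such a UMI, Fth1 differed by 0.35 (edgeR adjusted p = 0.0326), Ftl1 by 0.36 (adjusted p = 0.0384) and Slc11a1 by 0.38 (adjusted p = 0.0262). Over all genes 5.47% were called. Limma called no gene for a genotype effect that differed from that in cells without such a UMI. Markers of astrocytes in the cluster summed to 160 and 169 raw CPM in controls and 121 and 102 in knockouts, those of neutrophils to 187 and 208 against 178 and 175, and those of border-associated macrophages to 5.51 and 9.64 against 16.7 and 20.9. Their part in the result was not tested.

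In the other 7 clusters tested, none of the 54 values of a member passed edgeR's test, and 8 had an unadjusted p under 0.05. Among all genes, from 576 of 7770 in the interferon-like to 2428 of 12234 in the Klf2-led cluster had one. Over all genes 1.47% were called in the Gpnmb-led, 0.901% in the cytokine-like, 3.65% in the Klf2-led, 2.82% in the Lgals3-led and 0.553% in the interferon-like cluster, and 0.492% and 0.986% in the deeper and shallower proliferating-like clusters. Slc11a1 had its lowest fold changes there. In the cytokine-like cluster it stood at 213 and 208 CPM in PRMT1FL mice and at 168 and 139 in knockouts (log2 fold change -0.46, SE 0.10, adjusted p = 0.0719), and in the Gpnmb-led cluster at 174 and 179 against 150.2 and 132 (log2 fold change -0.33, SE 0.08, adjusted p = 0.0771). Neither passed. Slc40a1 stood at 24.6 and 26.1 CPM against 30.7 and 41.3 in the Klf2-led cluster (log2 fold change 0.51, SE 0.13, adjusted p = 0.0709) and at 9.96 and 9.86 against 13.4 and 15.7 in the Lgals3-led cluster (log2 fold change 0.57, SE 0.16, adjusted p = 0.0754). Fth1 was nearest to the threshold in the Lgals3-led cluster, at 10307 and 10545 CPM against 12068 and 14265 (log2 fold change 0.34, SE 0.11, adjusted p = 0.144). The difference of the effect from the other microglia was not called by limma for any gene in these clusters, and 5 of the member values had an unadjusted p under 0.05. Among all genes, from 450 of 7770 in the interferon-like to 1221 of 12080 in the Gpnmb-led cluster had one.

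Outside the microglia no test of single genes was made, since the tests covered microglial clusters. In the H2-Eb1-led cluster Fth1 stood at 7929 and 8693 raw CPM in PRMT1FL mice and at 13458 and 13415 in knockouts. In the astrocyte-like cluster it stood at 2786 and 2365 against 5150 and 4358, and Slc11a1 at 19.96 and 24.7 against 49.8 and 127. The knockout libraries held 40 and 20 astrocyte-like cells. In border-associated macrophage-like cells Fth1 stood at 7240.3 and 7906 against 8626 and 9433. Endothelial-like cells did not follow, with ferritin at 0.374% and 0.308% of UMIs in PRMT1FL mice and 0.364% and 0.324% in knockouts, which overlapped. RNA released into the droplets can place UMIs in cells that do not make them, and its part was not tested.

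A list of 65 other genes of iron handling, of which 56 could be tested over all microglia, gave 1 call. Blvrb encodes biliverdin reductase B, which acts on products of haem breakdown, and stood at 55.6 and 58.1 CPM in PRMT1FL mice and at 109 and 143 in knockouts (log2 fold change 1.145, SE 0.13, edgeR adjusted p = 0.0369). Without PRMT1FL mouse 1 or 2 its adjusted p was 0.406 and 0.420, at log2 fold changes of 1.11 and 1.18. At an unadjusted p under 0.05, Blvrb included, 9 genes of the list were higher and 4 lower. Of all 13852 genes tested, 1387 were higher and 1339 lower at that threshold. The median of the list was 0.03. Other genes of large change are given in order of size. Slc7a11, the cystine importer that feeds glutathione synthesis, stood at 11.1 and 8.60 CPM against 18.6 and 15.8 in knockouts (0.80, adjusted p = 0.0818). Slc39a14, an importer of iron that is not bound to transferrin, stood at 17.4 and 15.2 CPM against 21.8 and 24.9 (0.52, adjusted p = 0.0899). Alas1, the first enzyme of haem synthesis, stood at 86.8 and 89.8 CPM against 73.0 and 57.1 (-0.44, adjusted p = 0.131). Trf, which encodes transferrin, stood at 716 and 672 CPM against 577 and 491 (-0.38, adjusted p = 0.123). Slc22a17, a receptor for lipocalin, had a log2 fold change of 0.34 (adjusted p = 0.110), and Uros, of haem synthesis, -0.26 (adjusted p = 0.278).

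In the homeostatic-like cluster, 9 of the 52 list genes tested rose and 1 fell, against 11.1% and 10% of all genes. The median of the list was 0.02. Blvrb stood at 63.2 and 74.9 CPM in PRMT1FL mice and at 386 and 499 in knockouts (log2 fold change 2.68, SE 0.14, edgeR adjusted p = 7.94e-08). Slc7a11 stood at 5.86 and 1.69 CPM against 68.3 and 64.9 (4.09, SE 0.25, adjusted p = 3.38e-07). Hmox1, the haem oxygenase that frees iron from haem, stood at 79.7 and 82.2 CPM against 146 and 145 (0.84, SE 0.09, adjusted p = 4.86e-05). Nfe2l2, the transcription factor of the antioxidant response, stood at 329 and 308 CPM against 537 and 471 (0.66, SE 0.10, adjusted p = 4.48e-04). Gpx4, which removes lipid peroxides, stood at 238 and 253 CPM against 367 and 406 (0.65, SE 0.09, adjusted p = 3.76e-04). Slc48a1, a haem transporter of endosomes, rose by 0.96, Slc22a17 by 1.20, and the low genes Aifm2 and Steap3 by 2.88 and 1.68. Uros fell, from 10.6 and 12.05 CPM to 7.04 and 3.71 (log2 fold change -1.10, SE 0.29, adjusted p = 0.0168). In the other clusters Blvrb rose in the Klf2-led (1.11), Lgals3-led (1.48) and both proliferating-like clusters (0.94 and 0.78), Slc7a11 and Slc39a14 rose in the Klf2-led cluster (1.65 and 0.67), and Trf and Alas1 fell in the Lgals3-led cluster (-0.38 and -0.37).

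The members were spread unevenly over the microglial clusters. These levels are described with no test, in raw CPM of the cluster over the 4 mice. The clusters are named by markers or by leading genes. The B1-like cluster, led by Ms4a7, Clec12a and Cd38, held only 24 and 9 cells in PRMT1FL mice, so its low values are uncertain. Markers of border-associated macrophages summed to 300 raw CPM in it, against 14.3 to 64.2 in the other microglial clusters. With another clustering seed, no cluster was made up mostly of Klf2-led or of Gpnmb-led cells, so these were not followed there. At a raised resolution 76.7% and 73.3% of their cells fell in a matching cluster. The B1-like, border-associated macrophage-like and H2-Eb1-led clusters had a match in neither setting. Slc40a1 varied most, 11.7-fold between the highest and lowest mean. It stood at 90.6 to 142 in the homeostatic-like cluster and at 24.03 to 43.3 in the Klf2-led cluster, which overlapped neither each other nor the next, and at 9.32 to 14.3 as means of the other 7 clusters, whose neighbours overlapped. Ireb2 came next, at a mean of 39.5 in the B1-like and 38.5 in the homeostatic-like cluster, which overlapped, and 6.80 in both the Lgals3-led and the shallower proliferating-like cluster. The other clusters lay between 19.4 and 25.2 in mean. Ncoa4 stood at 41.6 to 58.8 in the homeostatic-like cluster, above the 29.7 to 32.2 of the Klf2-led cluster, and its remaining clusters overlapped their neighbours.

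Ferritin ran in another order. Fth1 was highest in the Lgals3-led cluster, at 9900 to 15193, and lowest in the homeostatic-like cluster, at 4289 to 8534, a 1.89-fold range of means in which all neighbours overlapped. It was lowest there in PRMT1FL mice, at 4289 and 4447, while each knockout, at 7801 and 8534, stood above its own value in the deeper proliferating-like cluster, at 6897 and 7820. Fth1 was higher in the Lgals3-led than in the next cluster in 4 of 4 mice. Ftl1 stood at 6963 to 10143 in the Lgals3-led cluster, above the 5249 to 6367 of the Klf2-led cluster, the next in mean, without overlap. It reached 7231 in the homeostatic-like and 7046 in the shallower proliferating-like cluster, which did overlap the Lgals3-led one. Its mean was lowest in the deeper proliferating-like cluster, at 3880 to 5270. Haemoglobin genes were also among the leading genes of the Lgals3-led cluster, where erythroid genes summed to 1978 and 1033 raw CPM in PRMT1FL mice and to 0 in both knockouts. Their part in the ferritin level was not tested. Slc11a1 was highest in the homeostatic-like cluster through its knockout cells, at 196 to 516, where PRMT1FL mice lay below the 258 to 272 of the Klf2-led cluster. It was lowest in the shallower proliferating-like cluster, at 80.8 to 111. Slc11a2 stood at 7.0 to 12.7 in that cluster and at 13.2 to 14.9 in the Lgals3-led cluster, below all clusters but the B1-like one. Tfrc was highest in the deeper proliferating-like cluster, at 16.8 to 21.3, and the cytokine-like cluster, at 16.2 to 21.0, which overlapped, and stood at 6.51 to 13.4 in the homeostatic-like cluster.

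**Figure D3:**
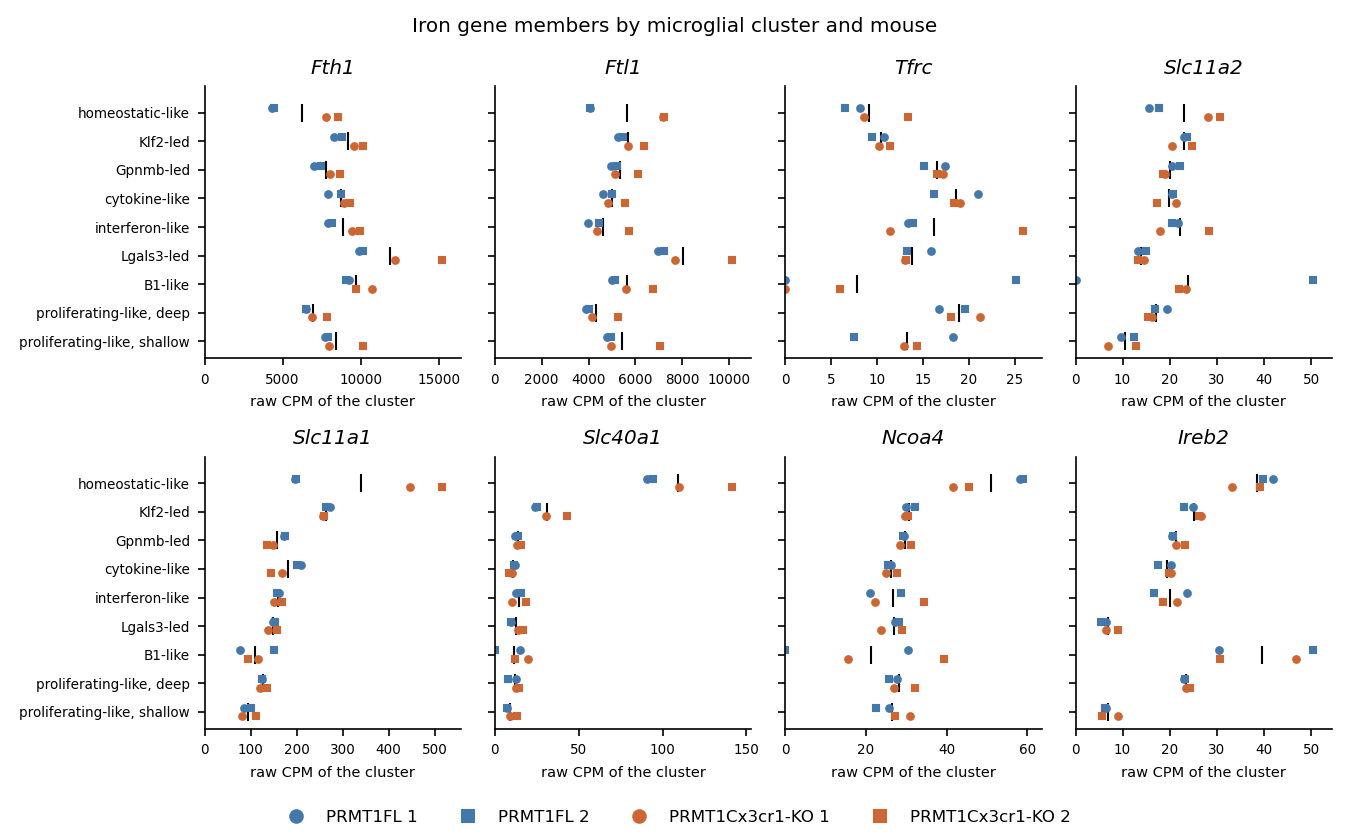
Level of each iron gene (x axis, raw CPM of the cluster, from 0) in the 9 microglial clusters (y axis) for each mouse, with the mean as a vertical bar. Slc40a1 stood apart in the homeostatic-like cluster at 90.6 to 142.

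Outside the microglia, endothelial-like cells held 133 to 421 raw CPM of Tfrc and 186 to 488 of Slc40a1, above every microglial cluster, from 10 to 35 cells per mouse. Border-associated macrophage-like cells held 40.0 to 71.8 of Slc40a1 and 174.7 to 233 of Slc11a1. Oligodendrocyte-like cells, present in 3 libraries with 8 to 27 cells, held 25212 to 27303 of Fth1 and 1458 to 1811 of Ftl1, so that Fth1 made up 93.3% to 94.9% of their ferritin UMIs.

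Single marker genes split the microglia in a way that does not rest on clusters. Cells with a UMI of the marker were compared with cells without one inside each mouse, after thinning to 2000 UMIs, with the mouse as a block in edgeR. Cells under 2000 UMIs were left out of the thinned sums. Mki67, a protein of cycling cells, marked 2.30% to 6.05% of cells. Between these and the rest 23% of genes were called, and among the members 4 were, all downward in 4 of 4 mice. Fth1 was lower by a log2 ratio of -0.37 (SE 0.04, adjusted p = 1.29e-14), Ftl1 by -0.42 (SE 0.04), Slc11a1 by -0.82 (SE 0.08) and Slc40a1 by -1.53 (SE 0.23, adjusted p = 3.12e-09). Slc40a1 went from 26.7, 29.6, 30.3 and 39.5 CPM in the other cells of the 4 mice to 12.4, 8.65, 4.48 and 16.3. The latter came from 237, 166, 330 and 589 cells, so the lowest values rest on few UMIs. Without thinning the log2 ratio of Slc40a1 was -0.94 (edgeR adjusted p = 8.85e-08). Tfrc, which serves iron uptake of dividing cells, had a log2 ratio of 0.25 (SE 0.25, adjusted p = 0.534) and was higher in 3 of 4 mice. Without thinning it was 0.39 (adjusted p = 2.18e-04) and higher in 4 of 4.

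Itgax, which encodes CD11c, and Cd74, the invariant chain of MHC class II, were the next markers. Itgax marked 5.43% to 19.9% of cells, and 12.2% of genes were called, with 4 members among them. Fth1 was higher by 0.45 (SE 0.03), Ftl1 by 0.31 (SE 0.02) and Slc11a1 by 0.63 (SE 0.05) in 4 of 4 mice, and Slc40a1 was lower by -0.49 (SE 0.11, adjusted p = 0.00326) in 4 of 4. Without thinning Slc40a1 no longer passed (-0.17, adjusted p = 0.230, higher in 1 of 4 mice), and Slc11a2 did (0.18, adjusted p = 0.0191). Slc11a1 went from 193, 187, 212 and 207 CPM without Itgax to 318, 313, 298 and 296 with it. Cd74 marked 8.77% to 36.6% of cells, and 14.2% of genes were called, with 5 members among them. Fth1 was higher by 0.32 (SE 0.05), Ftl1 by 0.14 (SE 0.05, adjusted p = 0.0455, in 3 of 4 mice) and Slc11a1 by 0.50 (SE 0.08). Slc40a1 was lower by -0.63 (SE 0.10) and Tfrc by -0.65 (SE 0.12, adjusted p = 7.01e-04), both in 4 of 4 mice. The rise of Slc11a1 with Cd74 was larger in controls, at log2 ratios of 0.73 and 0.83, against 0.26 and 0.05 for knockouts. That of Fth1 went the same way (0.46 and 0.50 against 0.22 and 0.10). No gene passed limma's test of such a difference between genotypes. For Cd74 without thinning, neither Tfrc (-0.17, edgeR adjusted p = 0.0514) nor Ftl1 (0.09, adjusted p = 0.259) passed, while Fth1, Slc11a1 and Slc40a1 did.

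Gdf15, a gene of cellular stress, marked 1.40% to 4.02% of cells, and 10.4% of genes were called, with 5 members among them, all upward. Ftl1 was higher by 0.36 (SE 0.08, adjusted p = 5.99e-04) in 4 of 4 mice, Fth1 by 0.27 (SE 0.08, adjusted p = 0.0193) and Slc11a2 by 0.68 (SE 0.21, adjusted p = 0.0219), each in 3 of 4. Slc11a1 (0.49) and Slc40a1 (0.93) were higher in both knockouts and in neither control. Slc40a1 stood at 24.6 and 8.65 CPM in Gdf15 cells of PRMT1FL mice, against 26.7 and 29.5 in their other cells, and at 64.5 and 92.9 against 28.3 and 36.0 in knockouts. The Gdf15 cells numbered 140 and 113 in PRMT1FL mice and 325 and 391 in knockouts, so the control values rest on few UMIs. The difference of the Slc40a1 ratio between genotypes was 2.20 (log2, limma adjusted p = 0.459) and no gene passed that test. For Gdf15 without thinning, Fth1 (0.23, edgeR adjusted p = 0.0403) and Slc11a2 (0.39, adjusted p = 0.00924) passed. Ftl1 (0.20, adjusted p = 0.0687), Slc11a1 (0.18, adjusted p = 0.445) and Slc40a1 (0.41, adjusted p = 0.250) did not. Ifit3, an interferon-stimulated gene, marked 4.29% to 7.87% of cells, with 5.52% of genes called by edgeR and no member among them. Fth1, Slc11a1 and Slc40a1 had an unadjusted p under 0.05, as had 1524 of the 10913 genes tested. Without thinning 3 members were called, with no share of all genes given for that setting. The member log2 ratios for Ifit3 ran from -0.38 for Slc40a1 to 0.20 for Ireb2.

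**Figure D4:**
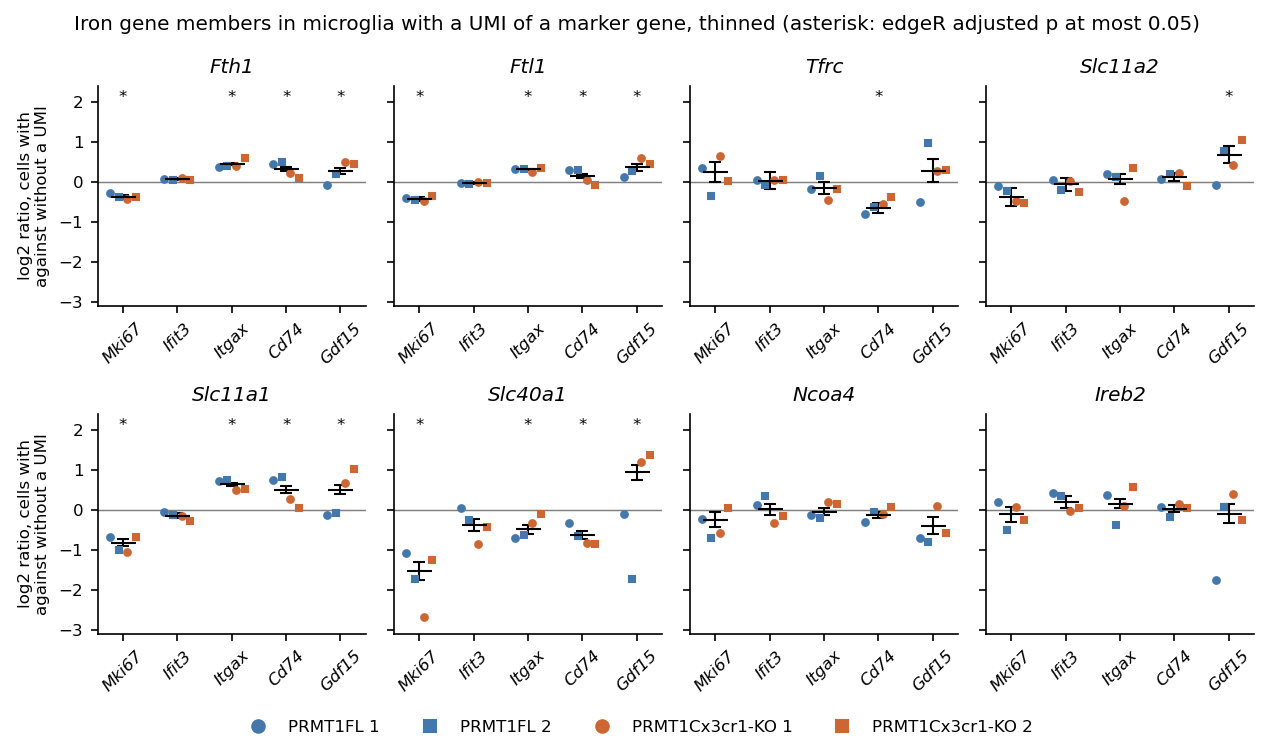
Log2 ratio of each iron gene (y axis) between microglia that held a UMI of the marker gene on the x axis and those that held none, after thinning to 2000 UMIs per cell. Coloured points are mice, black bars the fitted value with its SE, and asterisks an edgeR adjusted p of at most 0.05. Slc40a1 was lower with Mki67, Itgax and Cd74 in all 4 mice, and with Gdf15 its knockout mice lay above 0 and its PRMT1FL mice below.

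Likeness in pattern was measured as Pearson's r of log2 CPM, after the mean of each mouse was subtracted. It was taken over 32 points, 8 clusters of 4 mice, among 5132 genes with a mean of at least 20 CPM. The points share libraries and depth, and r is a description. Slc40a1 was most like Adgrg1, Tspan13 and Rtn4 (r = 0.965, 0.958 and 0.955), Ireb2 like Gigyf1, Fubp1 and Iffo1 (0.98 each) and Ncoa4 like Abi3, Fam49b and Susd3 (0.90 each). Among the genes most like Slc11a1 were Psap and Sqstm1 (0.91 and 0.89), and Slc11a2 was most like Abca1, Neu1 and C3ar1 (0.89, 0.89 and 0.88). Fth1 was most like Rps9, 1110038B12Rik and Lgals3 (0.91, 0.89 and 0.87), Ftl1 like its own pseudogene Ftl1-ps1, then Atp6v1e1 and Snhg8 (0.92, 0.81 and 0.78), and Tfrc like Rpn2, Tmem123 and Serpine2 (0.80, 0.79 and 0.77). Between members, r was 0.85 for Slc40a1 with Ncoa4, 0.69 for Fth1 with Ftl1, 0.78 for Slc11a1 with Slc11a2, -0.71 for Tfrc with Slc40a1 and -0.68 for Fth1 with both Ncoa4 and Ireb2.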

How the data were processed

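Per the labels and the study's methods, single-cell 3′ libraries were made from sorted brain cells of 2 PRMT1FL and 2 PRMT1Cx3cr1-KO mice, and the authors deposited raw UMI counts per gene and cell barcode, aligned to mm10. The submitters' processing notes name Cell Ranger 3.1.0, Seurat 3.2.0 and Scanpy 1.5.2. The annotation release is not given in the sources used here.

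Barcodes were kept at 200 to 6000 genes and no more than 10% UMIs of mitochondrial genes (8170 to 11427 per mouse). Doublet scores were computed with Scrublet in scanpy 1.11.5 (Python 3.11.15), the highest scores (6.54% to 9.15% of cells per mouse) were marked, and marked cells were left out only as an alternative. Cells were clustered (2000 variable genes, 20 components, 15 neighbours, Leiden resolution 0.3) without 73 iron genes and without 1534 genes set apart by genotype. These 1534 had an edgeR adjusted p of at most 0.05 over all filtered cells, or an absolute log2 fold change above 1 whatever their p. The cluster highest in Mrc1, Pf4, F13a1 and Mgl2 was divided once more at the same resolution, a step not repeated in the other clusterings. UMIs were summed per mouse, filtered with filterByExpr, scaled by TMM and tested with edgeR 4.0.16 (R 4.3.3, quasi-likelihood test, Benjamini-Hochberg adjustment over all genes tested, threshold 0.05), in clusters with at least 30 cells per mouse. The difference of a genotype effect between a cluster and other microglia was tested with limma 3.58.1 on log2 CPM with a prior count of 2. DESeq2 1.42.0, another size factor, no filter, other cell filters, other clusterings, a replicate block and leaving out each mouse were alternatives. The scripts were tested on simulated data.

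The text names all 8 members, the list genes called, the 8 list genes of largest change with a mean of at least 5 CPM, and the 3 genes most like each member, except for items not reported here. List genes called within a cluster were named after their values were seen. The members and lists were chosen with earlier results of these data known. The labels give separate samples per genotype and do not pair mice by number. CPM is counts per 1000000 UMIs of a mouse, by TMM-scaled totals or, as raw CPM, unscaled ones. UMIs are counted per gene and not per length, so levels are compared between samples and not between genes, and intervals for shares of cells were not computed.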

Additional observations from a re-analysis of the deposited data

Results flagged for a closer look

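For 4 members the genotype effect in the homeostatic-like cluster differed from that in the other microglial clusters, by limma on the log2 difference of each mouse. The difference was 0.69 for Fth1, 0.66 for Ftl1, 0.92 for Slc11a2 and 1.47 for Slc11a1 (log2, PRMT1Cx3cr1-KO minus PRMT1FL, 2 mice each), where 8.74% of the genes tested differed. In each of these genes both knockouts lay above both controls. The genes were picked by a test on these same values, so this separation adds no support. Without any 1 of the mice none of these 4 passed, and without cells that held a UMI of Gdf15 the difference for Ftl1 did not pass (adjusted p = 0.0738). Genes of the B1, cytokine, phagocytic and stress states were also higher in the cluster in knockouts, and their part was not tested.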

How the results depend on the processing

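Over all microglia 62 genes were called, and 710 with DESeq2, 1607 with no filter, 749 with all filtered cells, 522 with equal cluster weights in limma, 125 with a replicate block and 4, 6, 2486 and 852 without PRMT1FL mouse 1, PRMT1FL mouse 2, knockout mouse 1 and knockout mouse 2. Among members 1, Slc40a1, was called with no filter (log2 fold change 0.38, adjusted p = 0.004604), and leaving out each mouse gave 0 to 1. Among list genes 6 were called with DESeq2, 10 with no filter, 3 with all filtered cells, 3 with equal cluster weights, 2 with the replicate block and 0 to 14 without 1 mouse. The list genes called with DESeq2 were 6 of 56 tested, against 710 of 13852 genes in all. With no filter they were 10 of 63 against 1607 of 20131, and with all filtered cells 3 of 56 against 749 of 14757. With equal cluster weights they were 3 of 56 against 522 of 13852, and with the replicate block 2 of 56 against 125. Without 1 mouse, 56 list genes and 14107 to 14245 genes in all were tested. These fits leave 1 mouse in a genotype. The log2 CPM difference of mouse 1 from mouse 2 in PRMT1FL was correlated with that in knockouts (r = 0.169, 13852 genes tested). The replicate block changed no call of a member. With equal cluster weights the log2 fold change turned to 0.15 for Tfrc, 0.022 for Slc11a2, 0.078 for Slc11a1 and 0.0052 for Ncoa4, and that of Tfrc was 0.11 without PRMT1FL mouse 1 and 0.0024 without knockout mouse 2, within a range of -0.14 to 0.11 without 1 mouse. None of these passed.

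In the homeostatic-like cluster DESeq2 called 1057 genes against 2301. A raised clustering resolution called 7 members there, with 26% of all genes, and 6 for the difference from other microglia, with 12.9%. Cells with a UMI of P2ry12 gave 3 members, with Ireb2 at 0.052, and 0 for the difference from other microglia, and this difference gave 0 to 0 members without 1 mouse. The difference in the Fth1 share of ferritin ran from -0.677 points without knockout mouse 1 to 1.55 without knockout mouse 2. Without thinning, members called were 7 for Mki67, 3 for Ifit3, 2 for Gdf15 and 3 for Cd74. For Itgax they were 4, with Slc11a2 in place of Slc40a1. The share of all genes called without thinning is not given, so these counts cannot be set against it. Ratios turned for Slc11a2 (0.0021), Ncoa4 (-0.066) and Ireb2 (-0.048) with Ifit3 and for Ireb2 with Itgax (-0.024) and Cd74 (-0.057). The mean share of cells with a UMI, as deposited and thinned to 2000 UMIs, was 99.5% and 99.9% for Fth1, 99.3% and 99.8% for Ftl1, 10.3% and 2.56% for Tfrc, 14.5% and 3.95% for Slc11a2, 65.1% and 32.4% for Slc11a1, 15.1% and 5.25% for Slc40a1, 21.3% and 6.23% for Ncoa4 and 15.8% and 4.599% for Ireb2. Thinning left out cells under 2000 UMIs. The cause of these changes was not tested. With 2 mice per genotype, small changes of the low genes were not detectable.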
